A study of Mus musculus with 12 samples.

Results

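The interferon-stimulated genes described here are a module of 40 genes, measured on exon arrays of interscapular brown adipose tissue from 12 female C57BL/6 mice. Members were chosen by name, from a list of symbols drawn up with earlier results from these measured values in view, and each was read from the array row, a transcript cluster, assigned to it alone. Where a gene had several such rows, the row with the highest mean over the 12 arrays was used. Of the 40 members, 33 of the 20259 genes with a row of their own were found in this way, and all 33 passed the filter on low values that left 15896 genes for testing. Oas1a, Oas3, Eif2ak2, Ifi47, Igtp and Irgm2 were matched only to rows they share with other genes, no row was matched to Ifi44, and these 7 members were not analysed here. Which of the comparisons weighed in that choice is not recorded, so the counts and adjusted p-values below describe the members and are no independent evidence about them.

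The mice were 12 weeks old and had been kept for 2 weeks at 30 °C, a temperature at which a mouse needs little heat from brown fat. The 4 groups held 3 mice each: knockouts (Adiponectin-Cre; Cpt2f/f) given CL316243, knockouts given saline, controls (Cpt2f/f, labelled wild type) given CL316243 and controls given saline. CL316243 activates the β3-adrenergic receptor of adipocytes and was injected into the peritoneum at 10 mg/kg, and tissue was collected 3 h after either injection. The adiponectin promoter drives Cre in adipocytes, so the other cells of the tissue keep Cpt2, whose enzyme brings long-chain fatty acids into the mitochondrial matrix to be oxidized. Controls carry the floxed alleles without Cre, and no group carries Cre without floxed alleles. The labels call the 3 mice of a group biological replicates, do not pair mice between groups and name no batch.

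Interferons are secreted proteins that cells release on sensing viral nucleic acid or, in the case of interferon gamma, on activation of T and natural killer cells. Type I interferons bind a receptor of Ifnar1 and Ifnar2 and act through Stat2 and Irf9 on the interferon-stimulated response element (ISRE) of target promoters. Interferon gamma binds Ifngr1 and Ifngr2 and acts mainly on the gamma-activated sequence (GAS). The induced genes include sensors of foreign RNA, antiviral effectors and transcription factors that extend the response, and many are expressed at a tonic level in unstimulated tissue. Adipocytes respond to interferons, and so do the macrophages, lymphocytes, endothelial cells and fibroblasts of a fat pad.

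The promoters were searched for both elements, because these are the letters through which the module is known to be induced. RefSeq promoter windows of build GRCm38.p6 were available for 31 of the 40 members, and the 250 bases before each annotated start were read. The ISRE was searched as GAAANNGAAA on either strand, and the GAS as TTCNNNGAA, which reads the same on both strands. An ISRE match lay in the windows of 11 of these 31 members (35.5%) and of 936 of the 27025 genes with a window (3.463%). A GAS match lay in 8 of the 31 (25.8%) and in 2197 of the 27025 genes (8.13%). The 11 members with an ISRE match were Bst2, Ifit1, Ifit3, Igtp, Irgm1, Irgm2, Isg15, Oas1a, Oas3, Rsad2 and Stat2. A match is a run of letters and not a tested binding site, and a window without one says only that these letters are not in it.

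Stretches of 100 bases are shown for 7 members with a match and for Trim25, whose window held neither element and whose expression is set apart below. Capitals mark the matches, and each line reads 5′ to 3′ on the strand of the gene. In Isg15 the 3 ISRE matches overlap one another, in Irgm1 and Bst2 the 2 ISRE matches overlap, and in Bst2 the GAS match TTCCAGGAA also overlaps the first ISRE match. Ifit1, Ifit3 and Rsad2 carry the element on the opposite strand, so it reads TTTC first.
Isg15 (chr4:156200819-156200918, minus strand): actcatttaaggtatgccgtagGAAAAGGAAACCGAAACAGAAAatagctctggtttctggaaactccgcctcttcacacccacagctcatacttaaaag
Ifit1 (chr19:34640765-34640864, plus strand): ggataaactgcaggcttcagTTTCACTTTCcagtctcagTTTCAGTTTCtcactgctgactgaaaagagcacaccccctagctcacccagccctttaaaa
Ifit3 (chr19:34583353-34583452, plus strand): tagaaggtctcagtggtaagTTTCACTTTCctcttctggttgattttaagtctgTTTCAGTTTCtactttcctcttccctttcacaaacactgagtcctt
Rsad2 (chr12:26456493-26456592, minus strand): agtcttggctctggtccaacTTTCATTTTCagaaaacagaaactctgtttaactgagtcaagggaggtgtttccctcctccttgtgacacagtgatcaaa
Bst2 (chr8:71537529-71537628, minus strand): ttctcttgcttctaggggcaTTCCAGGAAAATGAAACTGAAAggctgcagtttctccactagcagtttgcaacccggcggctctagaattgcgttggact
Irgm1 (chr11:48871421-48871520, minus strand): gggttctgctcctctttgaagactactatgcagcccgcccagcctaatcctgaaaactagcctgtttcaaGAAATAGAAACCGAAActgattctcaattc
Irf1 (chr11:53769914-53770013, plus strand): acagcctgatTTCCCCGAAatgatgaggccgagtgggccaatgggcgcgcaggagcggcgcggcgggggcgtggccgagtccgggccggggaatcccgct
Trim25 (chr11:88999303-88999402, plus strand): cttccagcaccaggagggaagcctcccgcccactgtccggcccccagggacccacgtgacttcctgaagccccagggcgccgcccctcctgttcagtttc
The capitals in Irf1 mark a single GAS match, TTCCCCGAA, whose first base lies 90 bases before the start. In Isg15 the matches begin 78, 72 and 66 bases before the start, and in Irgm1 30 and 24 bases before it.

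Values are log2 intensities, so a difference of 1 is a doubling, and levels of different genes are not comparable because each row has its own probes. Cpt2 lay at 7.87 to 8.20 in the 6 knockout arrays and at 8.52 to 8.99 in the 6 control arrays, and where its probes lie relative to the deleted part is not given in the sources used here. Pearson correlations between arrays, taken over the tested genes, were 0.9375 to 0.9845 for arrays of 1 group and 0.878 to 0.960 for arrays of different groups. Saline knockout array 1 stood apart in Ucp1, the heat-producing uncoupling protein of brown fat, at 8.39 against 11.47 to 12.29 in the other saline knockout arrays. The 25th percentile of the named genes, used as the floor for low values, lay between 5.27 and 5.58 across arrays. All tests are two-sided and come from 1 limma fit to the 12 arrays, with p-values adjusted over all 15896 tested genes, a call at an adjusted p under 0.05, and standard errors (SE) of that fit, n = 3 arrays per group. The number of arrays limits the precision.

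**Figure D1:**
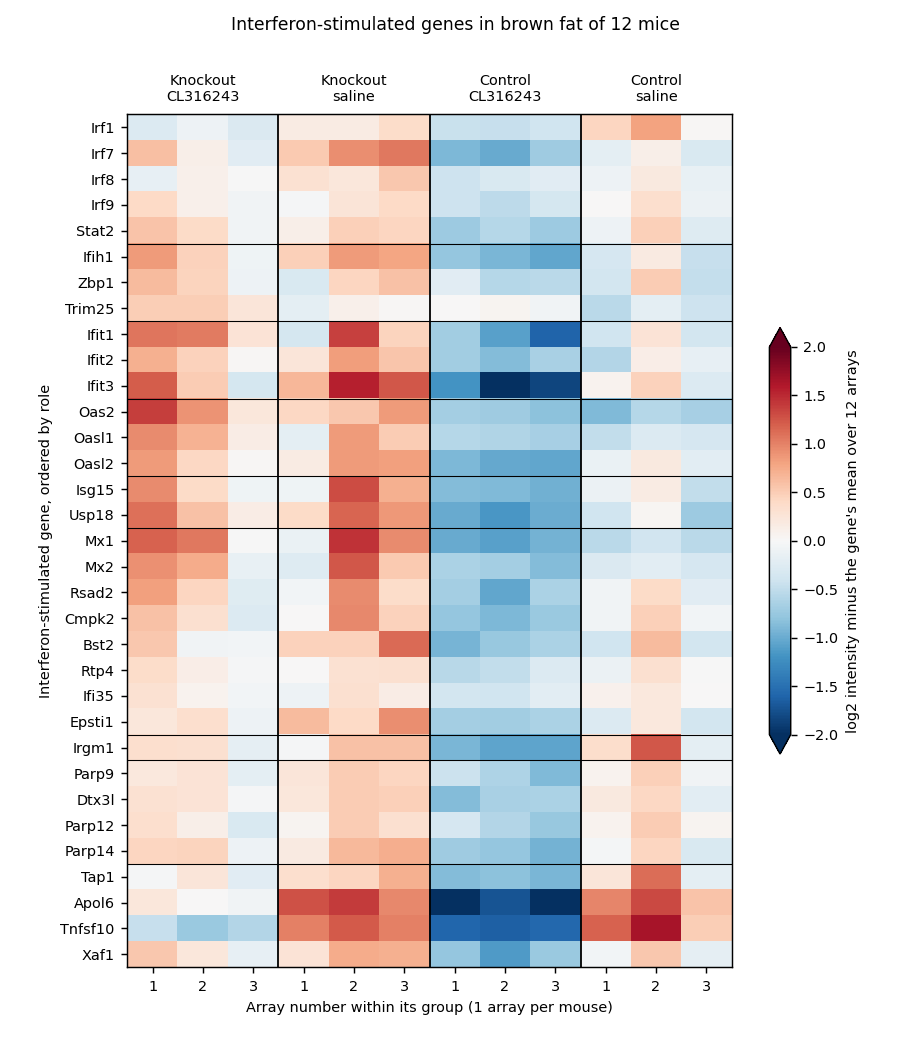
Log2 intensity of the 33 members (rows, ordered by role) on each of the 12 arrays (columns, 3 per group), centred on each gene's mean, with red above and blue below it. The 3 CL316243-treated control arrays are the bluest block, and that group has the lowest mean for 32 of the 33 members.

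Nearly all members had their lowest level in the same group. Controls given CL316243 had the lowest mean of the 4 groups for 32 of 33 members, the exception being Trim25, whose mean was lowest in saline controls. The highest mean was in saline knockouts for 25 members, in CL316243-treated knockouts for 5 (Zbp1, Trim25, Ifit1, Oas2 and Oasl1) and in saline controls for 3 (Irf1, Irgm1 and Tnfsf10). Shares of all tested genes with these orders are not given here, so the orders are not shown to be particular to the module. The mean over members of the centred values was 0.55, 0.34 and -0.09 in CL316243-treated knockout arrays 1 to 3, 0.20, 0.74 and 0.64 in saline knockout arrays, -0.75, -0.84 and -0.84 in CL316243-treated control arrays, and -0.09, 0.37 and -0.22 in saline control arrays. These summed levels separated the CL316243-treated controls from every other array and overlapped among the other 3 groups.

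After CL316243, knockouts carried higher levels of nearly the whole module than controls. Of 33 members 30 rose and none fell, and for all 33 every knockout array lay above every control array. Over all tested genes 14.7% were called higher and 14.8% lower in this comparison, and 21.7% had all 3 knockout arrays above all 3 control arrays. The median member difference was 1.03 log2 units, against -0.04 over all tested genes. Differences ran from 0.21 in Irf1 to 2.28 in Apol6, a 4.86-fold higher level. The 3 members without a call were Irf1, Irf8 and Zbp1. At an unadjusted p under 0.05 the fit passed 32 of 33 as higher, and 19.78% of all tested genes. Without knockout CL316243 array 1 the count of rising members was 19, over all single arrays left out it ran from 19 to 31, and 17 of the 30 kept their call under every alternative tried.

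**Figure D2:**
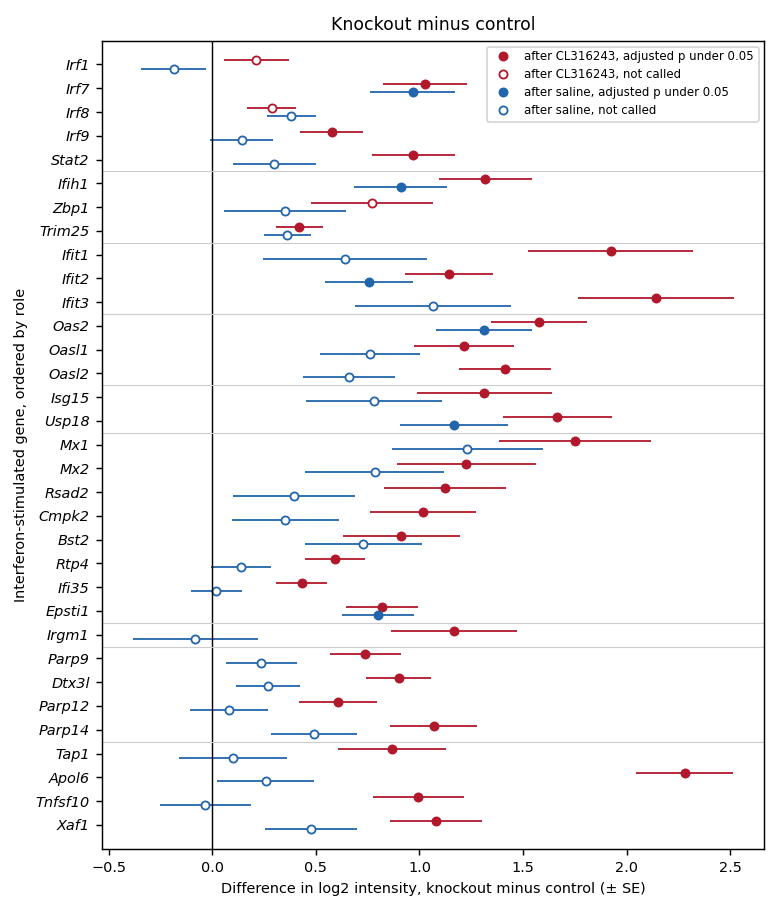
Difference in log2 intensity, knockout minus control (x axis, ± SE), for each member (y axis) after CL316243 (red) and after saline (blue), with filled circles where the adjusted p was under 0.05. All 33 red circles lie right of 0, 30 of them filled, whereas 6 blue circles are filled.

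The IFIT proteins bind viral RNA that lacks the host's cap marks, and their genes had some of the largest differences. Ifit1 was at 9.85, 9.83 and 9.06 in CL316243-treated knockouts, against 8.08, 7.70 and 7.19 in CL316243-treated controls. Ifit3 was at 11.003, 10.30 and 9.45 in CL316243-treated knockouts, against 8.61, 7.75 and 7.96 in CL316243-treated controls. Ifit2 was at 7.53, 7.27 and 6.84 in knockouts given the agonist, against 6.12, 5.94 and 6.16 in controls given it. In all 3 genes the knockout arrays lay above the control arrays without overlap. Ifit3 rose 4.42-fold (2.14 ± 0.38, SE, adjusted p = 0.00212), Ifit1 rose 3.79-fold (1.92 ± 0.40, adjusted p = 0.00484) and Ifit2 rose 2.21-fold (1.14 ± 0.21, adjusted p = 0.00297). These 3 calls held under every alternative.

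Isg15 encodes a ubiquitin-like protein that is joined to other proteins, and Usp18 removes it and also damps the type I receptor. Isg15 was at 8.26, 7.69 and 7.22 in CL316243-treated knockouts and at 6.45, 6.43 and 6.35 in CL316243-treated controls, and its 3 overlapping ISRE matches are printed above. Usp18 was at 9.27, 8.76 and 8.32 in CL316243-treated knockouts and at 7.16, 7.01 and 7.19 in CL316243-treated controls. Both rose, Usp18 by 1.67 ± 0.26 (adjusted p = 0.00117) and Isg15 by 1.31 ± 0.33 (adjusted p = 0.0125). Without knockout CL316243 array 1 the Isg15 difference was 1.05 (adjusted p = 0.0512).

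The OAS family holds the oligoadenylate synthetases and related proteins. The oligoadenylates that the synthetases make activate an RNA-degrading enzyme in infected cells. Oas2 was at 9.26, 8.78 and 8.10 in CL316243-treated knockouts, against 7.19, 7.17 and 7.05 in CL316243-treated controls. Oasl1, which in mice restrains translation of Irf7, was at 8.92, 8.67 and 8.13 in those knockouts, against 7.40, 7.37 and 7.31 in those controls. Oasl2 was at 9.07, 8.64 and 8.24 in the knockouts, against 7.32, 7.21 and 7.19 in the controls. No array of one genotype reached the other in these 3 genes. The differences were 1.58 ± 0.23 for Oas2 (adjusted p = 0.000845), 1.22 ± 0.24 for Oasl1 (adjusted p = 0.00403) and 1.41 ± 0.22 for Oasl2 (adjusted p = 0.00112), and all 3 calls held under every alternative.

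Among transcription factors, Irf7, which amplifies type I interferon production, and the ISRE-binding partners Stat2 and Irf9 rose. Irf7 was at 8.27, 7.78 and 7.45 in CL316243-treated knockouts, against 6.78, 6.67 and 6.97 in CL316243-treated controls. Stat2 was at 8.92, 8.72 and 8.27 in those knockouts, against 7.62, 7.77 and 7.61 in those controls. Irf9 was at 8.21, 7.90 and 7.74 in the knockouts, against 7.38, 7.29 and 7.45 in the controls. The 3 genes were higher on each knockout array than on any control array, by 1.03 ± 0.20 (Irf7, adjusted p = 0.00394), 0.97 ± 0.20 (Stat2, adjusted p = 0.00479) and 0.58 ± 0.15 (Irf9, adjusted p = 0.0166). The Irf9 call was lost without knockout CL316243 array 1 (0.45, adjusted p = 0.0672) or control CL316243 array 2 (0.53, adjusted p = 0.0557). Irf1, induced mainly by interferon gamma, was at 7.09, 7.26 and 7.07 in CL316243-treated knockouts and at 6.91, 6.90 and 6.96 in CL316243-treated controls, a difference of 0.21 ± 0.16 without a call (adjusted p = 0.317). Irf8, a factor of myeloid cells, was at 6.80, 7.06 and 6.95 in these knockouts and at 6.56, 6.66 and 6.73 in these controls, also without a call (0.29 ± 0.12, adjusted p = 0.0880). On these 2 genes too, each knockout array lay above each control array.

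Sensors of nucleic acid were mixed. Ifih1, which encodes the double-stranded RNA sensor MDA5, was at 8.96, 8.58 and 8.03 in CL316243-treated knockouts, against 7.33, 7.20 and 7.07 in CL316243-treated controls, and rose by 1.32 ± 0.23 (adjusted p = 0.00186). Zbp1, a sensor of Z-form nucleic acid linked to cell death, was at 8.13, 7.95 and 7.40 in those knockouts, against 7.27, 6.93 and 6.96 in those controls. Its difference of 0.77 ± 0.30 missed the threshold (adjusted p = 0.0703) and passed it in 4 alternatives, for example without knockout CL316243 array 3 (0.98, adjusted p = 0.0440). Trim25, a ubiquitin ligase that activates the RNA sensor RIG-I, was at 9.15, 9.16 and 8.91 in CL316243-treated knockouts, against 8.66, 8.71 and 8.58 in CL316243-treated controls, and rose by 0.42 ± 0.11 (adjusted p = 0.0176). That call was lost without knockout CL316243 array 1 (0.38, adjusted p = 0.0642), knockout CL316243 array 2 (0.38, adjusted p = 0.0649) or control CL316243 array 3 (0.39, adjusted p = 0.0507).

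All 8 antiviral effectors rose, with differences of 0.43 (Ifi35) to 1.75 (Mx1). Mx1, a dynamin-like GTPase that blocks influenza virus in other strains and lacks function in C57BL/6 mice, was at 7.63, 7.51 and 6.45 in CL316243-treated knockouts, against 5.44, 5.38 and 5.52 in CL316243-treated controls. Of those control arrays 2 lay below the floor for Mx1, as did 1 for Mx2 and all 3 for Epsti1, so the sizes of these 3 differences may be understated. Rsad2, which encodes viperin, was at 9.94, 9.54 and 8.87 in the knockouts, against 8.43, 8.07 and 8.49 in the controls, and rose by 1.12 ± 0.29 (adjusted p = 0.0157). Bst2, the tetherin gene, was at 10.24, 9.63 and 9.64 in the knockouts, against 8.78, 8.94 and 9.07 in the controls, and rose by 0.91 ± 0.28 (adjusted p = 0.0320). Mx1 rose by 1.75 ± 0.37 (adjusted p = 0.00513) under every alternative. Rsad2 lost its call without knockout CL316243 array 1 (0.88, adjusted p = 0.0638) or control CL316243 array 2 (0.99, adjusted p = 0.0570). Bst2 lost its call without knockout CL316243 array 1 (0.71, adjusted p = 0.119) or without control CL316243 array 1, 2 or 3 (0.84, 0.92 and 0.98, adjusted p = 0.0769, 0.0721 and 0.0552). Ifi35, Cmpk2 and Mx2, which also rose, lost their calls without knockout CL316243 array 1 (0.33, 0.83 and 1.02, adjusted p = 0.0907, 0.0551 and 0.0743). Ifi35 and Mx2 lost them also without knockout CL316243 array 2 (0.45 and 1.11, adjusted p = 0.0529 and 0.0660), Ifi35 without control CL316243 array 1 or 2 (0.41 and 0.40, adjusted p = 0.0543 and 0.0728) and Mx2 without control CL316243 array 3 (1.15, adjusted p = 0.0583).

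Irgm1, an immunity-related GTPase that directs autophagy of pathogens, was at 8.10, 8.09 and 7.59 in CL316243-treated knockouts, against 6.86, 6.71 and 6.71 in CL316243-treated controls. It rose by 1.17 ± 0.30 (adjusted p = 0.0149), a call lost without knockout CL316243 array 1 or 2 (1.08 and 1.09, adjusted p = 0.0534 and 0.0515). The ADP-ribosylation genes comprise the partners Parp9 and Dtx3l and the transferases Parp12 and Parp14, and all 4 rose. Parp9 was at 7.97, 8.02 and 7.56 in the knockouts, against 7.32, 7.15 and 6.87 in the controls. Parp14 was at 8.87, 8.88 and 8.34 in these knockouts, against 7.72, 7.67 and 7.49 in these controls. Neither gene overlapped between genotypes, with differences of 0.74 ± 0.17 for Parp9 (adjusted p = 0.00885) and 1.07 ± 0.21 for Parp14 (adjusted p = 0.00370). Dtx3l rose by 0.90 ± 0.16 (adjusted p = 0.00199). Parp12 rose by 0.61 ± 0.19 (adjusted p = 0.0322) and lost the call without any 1 of 4 arrays of the groups compared, the difference then lying between 0.47 and 0.59 (adjusted p between 0.0795 and 0.121).

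Genes of antigen transport and cell death held the largest difference of the module. Apol6, of the apolipoprotein L family, was at 10.29, 10.06 and 9.98 in CL316243-treated knockouts, against 7.78, 8.33 and 7.39 in CL316243-treated controls. Tnfsf10, the death ligand TRAIL, was at 6.87, 6.58 and 6.74 in these knockouts, against 5.75, 5.70 and 5.76 in these controls. Both sets of arrays were wide apart between genotypes. Apol6 rose by 2.28 ± 0.24 (adjusted p = 0.000142) and Tnfsf10 by 0.995 ± 0.22 (adjusted p = 0.00686). Tap1, which carries peptides into the endoplasmic reticulum for presentation, was at 7.97, 8.25 and 7.78 in the knockouts, against 7.13, 7.18 and 7.08 in the controls. Xaf1, an antagonist of the apoptosis inhibitor XIAP, was at 8.45, 8.15 and 7.76 in these knockouts, against 7.15, 6.79 and 7.17 in these controls. These 2 genes rose as well, Tap1 by 0.87 ± 0.26 (adjusted p = 0.0284) and Xaf1 by 1.08 ± 0.22 (adjusted p = 0.00469). The Tap1 call was lost without any 1 of 5 arrays of the groups compared, the lowest difference being 0.74 without knockout CL316243 array 2 (adjusted p = 0.0974). With the mean of a gene's rows in place of the row of highest mean, Tnfsf10 and Xaf1 had differences of 0.46 and 0.57 without a call (adjusted p = 0.0781 and 0.0800).

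Markers of other cell types moved in the same comparison, and in whole tissue a change in the number of cells cannot be told apart from a change in RNA per cell. Of the macrophage markers 9 of 9 rose, of the fibroblast markers 5 of 5, of the pan-leukocyte markers 3 of 4 and of the T and NK cell markers 3 of 10. Of the brown adipocyte markers 5 of 9 fell and 1 rose, of the endothelial markers 3 of 7 fell and 1 rose, and none of the 4 tested neutrophil markers had a call. Of the B cell markers 1 of 5 rose, and of the dendritic cell markers 1 of 6 fell and none rose. Over all tested genes 14.7% were called higher and 14.8% lower. The summed brown adipocyte level ran from -0.35 to -0.10 in CL316243-treated knockouts and from 0.91 to 1.06 in CL316243-treated controls, without overlap. The markers of this list did not move alike. Ppargc1a was at 9.76, 9.84 and 9.84 in these knockouts, against 11.57, 11.53 and 11.27 in these controls. Adipoq was at 12.22, 12.07 and 12.03 in the knockouts, against 11.32, 11.54 and 11.45 in the controls, and Plin1 and Fabp4 overlapped. The summed macrophage level ran from 0.36 to 0.61 in CL316243-treated knockouts and from -0.62 to -0.42 in CL316243-treated controls. The summed pan-leukocyte level ran from -0.10 to 0.66 in these knockouts and from -0.79 to -0.65 in these controls, and the T and NK cell level from -0.42 to 0.49 in these knockouts and from -0.69 to -0.54 in these controls. Knockout CL316243 array 1, which had the highest member level of its group (0.55), had the lowest T and NK cell level (-0.42) and the lowest pan-leukocyte level (-0.10) of its group. Its macrophage level (0.44) lay between those of knockout CL316243 arrays 2 and 3 (0.61 and 0.36). The part of these cell types in the member differences was not tested.

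After saline, fewer members differed between genotypes. Of 33 members 6 rose in knockouts and none fell, while 5.44% of all tested genes were called higher and 6.19% lower. For 11 members all 3 knockout arrays lay above all 3 control arrays, as they did for 14.1% of all tested genes. The median member difference was 0.40, against -0.05 over all tested genes. At an unadjusted p under 0.05, 16 members passed as higher, as did 12.21% of all tested genes. Without saline knockout array 3 or saline control array 1 the count was 1, without saline control array 3 it was 3, without saline control array 2 it was 9, and without saline knockout array 1, the array low in Ucp1, it was 6. Oas2 alone kept its call under every alternative.

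**Figure D3:**
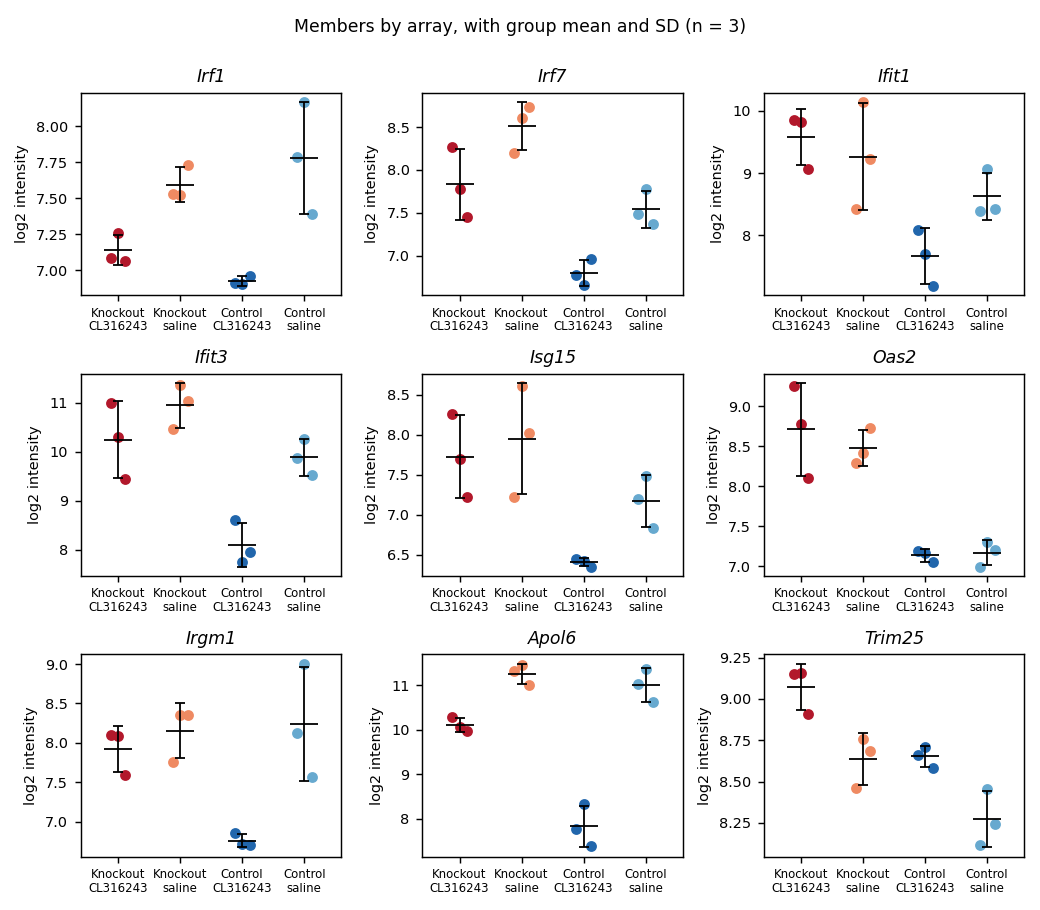
Log2 intensity of 9 members (1 panel each, own y axis) on each array, as coloured points for knockouts given CL316243 or saline and controls given CL316243 or saline, with black bars for the mean ± SD (n = 3). Apol6 and Ifit3 drop most between saline and CL316243 controls, Oas2 differs mainly by genotype, and Trim25 is higher after CL316243 in both genotypes.

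The 6 members that rose after saline came from 6 different roles. Oas2 was at 8.29, 8.42 and 8.73 in saline knockouts, against 6.99, 7.30 and 7.20 in saline controls, a 2.48-fold rise (1.31 ± 0.23, SE, adjusted p = 0.00760). Usp18 was at 8.55, 9.34 and 9.04 in saline knockouts, against 7.77, 8.22 and 7.45 in saline controls, and rose by 1.17 ± 0.26 (adjusted p = 0.0188). Irf7 was at 8.19, 8.60 and 8.73 in the knockouts, against 7.48, 7.78 and 7.37 in the controls, and rose by 0.97 ± 0.20 (adjusted p = 0.0148), while its row of lower mean had a difference of 0.31. No knockout array of these 3 genes fell to the control range. Ifih1 was at 8.59, 8.95 and 8.89 in saline knockouts, against 7.76, 8.29 and 7.64 in saline controls, and rose by 0.91 ± 0.23 (adjusted p = 0.0274). Epsti1 rose by 0.80 ± 0.17 (adjusted p = 0.0163). Ifit2 was at 7.06, 7.65 and 7.37 in the knockouts, against 6.22, 6.94 and 6.65 in the controls, and rose by 0.76 ± 0.21 (adjusted p = 0.0439). The last 5 of these calls rested on single arrays. Without saline knockout array 3 the differences were 1.13 for Usp18, 0.86 for Irf7, 0.87 for Ifih1, 0.66 for Epsti1 and 0.75 for Ifit2 (adjusted p = 0.0688, 0.0646, 0.0964, 0.0693 and 0.124). Without saline control array 1 they were 1.15, 0.94, 0.84, 0.73 and 0.57 in the same order of genes, also without a call (adjusted p = 0.0675, 0.0591, 0.0987, 0.0689 and 0.159). Without saline knockout array 1 Epsti1, Ifih1 and Ifit2 had larger differences and no call (0.81, 1.02 and 0.91, adjusted p = 0.0533, 0.0511 and 0.0534). Ifih1 and Ifit2 lost their calls without saline knockout array 2 (0.84 and 0.61, adjusted p = 0.0596 and 0.108), and Usp18, Ifih1 and Ifit2 without saline control array 3 (0.99, 0.78 and 0.78, adjusted p = 0.0522, 0.0755 and 0.0771). The Ifit2 call was also lost without knockout CL316243 array 2 or control CL316243 array 1 or 2, which enter only the estimate of spread (adjusted p = 0.0577, 0.0568 and 0.0592).

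Other members of the same families lay higher on most saline knockout arrays without passing the test. Ifit1 was at 8.43, 10.14 and 9.22 in saline knockouts and at 8.39, 9.06 and 8.42 in saline controls, with an overlap of 1 knockout array (0.64 ± 0.40, adjusted p = 0.301). Ifit3 was at 10.46, 11.36 and 11.04 in saline knockouts and at 9.88, 10.26 and 9.52 in saline controls (1.06 ± 0.38, adjusted p = 0.0892). Mx1 was at 6.32, 7.90 and 7.39 in saline knockouts and at 5.92, 6.07 and 5.92 in saline controls (1.23 ± 0.37, adjusted p = 0.0517). Ifit3 and Mx1 did not overlap between genotypes, and the spread of the knockout arrays was wide, with SDs of 0.46 and 0.81. Without saline knockout array 1 the Mx1 difference was 1.67 and called (adjusted p = 0.0170), as were those of Oasl1 (1.05, adjusted p = 0.0213) and Oasl2 (0.88, adjusted p = 0.0420). With all arrays Oasl1 was at 7.78, 8.83 and 8.48 in saline knockouts and at 7.48, 7.70 and 7.63 in saline controls (0.76 ± 0.24, adjusted p = 0.0649). Oasl2 was at 8.39, 9.07 and 9.04 in saline knockouts and at 8.09, 8.43 and 8.01 in saline controls (0.66 ± 0.22, adjusted p = 0.0750). Saline knockout array 1 was the lowest of the 3 for 27 of 33 members, including each gene of this paragraph.

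Isg15 was at 7.22, 8.61 and 8.02 in saline knockouts and at 7.19, 7.48 and 6.83 in saline controls (0.78 ± 0.33, adjusted p = 0.142). Bst2 was at 10.16, 10.16 and 10.83 in saline knockouts and at 9.31, 10.33 and 9.33 in saline controls (0.73 ± 0.28, adjusted p = 0.115), and without saline control array 2 the difference was 1.07 and called (adjusted p = 0.0245). The genotypes overlapped in both genes. Rsad2 was at 9.06, 10.07 and 9.49 in saline knockouts and at 9.05, 9.50 and 8.89 in saline controls. Zbp1 was at 7.20, 7.93 and 8.09 in the knockouts and at 7.13, 8.02 and 7.02 in the controls, and Xaf1 at 8.19, 8.67 and 8.63 in the knockouts and at 7.86, 8.45 and 7.74 in the controls. None of these 5 members had a call. Irf8 was at 7.27, 7.19 and 7.51 in saline knockouts and at 6.86, 7.15 and 6.81 in saline controls (0.38 ± 0.12, adjusted p = 0.0584). Trim25 was at 8.46, 8.76 and 8.69 in saline knockouts and at 8.12, 8.46 and 8.24 in saline controls (0.36 ± 0.11, adjusted p = 0.0602). These 2 genes did not overlap between genotypes, and both passed when the arrays were quantile-normalized again (adjusted p = 0.0402 for Irf8 and 0.0384 for Trim25), as did Mx1 (adjusted p = 0.0414).

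In a further set of members the genotypes intermixed after saline. Irf1 was at 7.53, 7.52 and 7.73 in saline knockouts and at 7.79, 8.17 and 7.39 in saline controls (-0.19 ± 0.16, adjusted p = 0.451). Stat2 was at 8.46, 8.83 and 8.78 in saline knockouts and at 8.25, 8.82 and 8.09 in saline controls, and Irf9 at 7.79, 8.06 and 8.21 in the knockouts and at 7.81, 8.14 and 7.68 in the controls. Irgm1 was at 7.75, 8.36 and 8.35 in saline knockouts and at 8.12, 9.01 and 7.57 in saline controls (-0.08 ± 0.30, adjusted p = 0.877). In these 4 genes saline control array 2 lay above at least 1 saline knockout array. Tap1 was at 8.33, 8.43 and 8.71 in saline knockouts and at 8.25, 9.12 and 7.82 in saline controls. Parp9 was at 8.003, 8.26 and 8.19 in the knockouts and at 7.82, 8.23 and 7.69 in the controls, and Parp14 at 8.62, 9.09 and 9.17 in the knockouts and at 8.40, 8.87 and 8.14 in the controls. The 3 genes overlapped between genotypes. Apol6 was at 11.33, 11.46 and 11.02 in saline knockouts and at 11.03, 11.38 and 10.63 in saline controls (0.26 ± 0.24, adjusted p = 0.485). Tnfsf10 was at 8.34, 8.55 and 8.33 in saline knockouts and at 8.51, 8.98 and 7.83 in saline controls (-0.03 ± 0.22, adjusted p = 0.934). The wide separation of Apol6 and Tnfsf10 between genotypes after CL316243 was thus not seen after saline. Over the module, the members without a call after saline ran from -0.19 (Irf1) to 1.23 (Mx1).

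After saline the macrophage markers rose in 7 of 9 cases and the fibroblast markers in 5 of 5, with 1 of 4 pan-leukocyte and 1 of 10 T and NK cell markers higher. All 4 tested neutrophil markers fell (median -1.31), and their summed level ran from -1.11 to -0.41 in saline knockouts and from 0.23 to 1.21 in saline controls, without overlap. Of the brown adipocyte markers 2 of 9 fell and 1 rose. Of the dendritic cell markers 1 of 6 rose, and no B cell or endothelial marker had a call. Over all tested genes 5.44% were called higher and 6.19% lower. The summed macrophage level ran from 0.11 to 0.54 in saline knockouts and from -0.52 to -0.12 in saline controls. The summed T and NK cell level ran from 0.28 to 0.95 in saline knockouts and from -0.47 to 0.67 in saline controls. The 0.67 belonged to saline control array 2, which was the highest of its group for all 33 members. The part of these cells in the member differences was not tested.

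In controls, CL316243 lowered most of the module within 3 h. Of 33 members 20 fell and Trim25 rose, and 30 members had all 3 CL316243 arrays below all 3 saline arrays. Over all tested genes 18.8% were called lower and 11.0% higher, and 26.7% had all CL316243 arrays below all saline arrays. The median member difference was -0.74, against -0.07 over all tested genes. At an unadjusted p under 0.05 the fit passed 27 members as lower, and 25.89% of all tested genes. Both this comparison and the knockout comparison after CL316243 use the CL316243-treated control arrays, so their values for the members are tied. The count of falling members was 12 without saline control array 2, 13 without CL316243 control array 1 or 2 and at most 22 with any single array left out, and 25 with only the groups compared in the fit. With median-centred arrays 14 members fell and the median member difference was -0.62, where Stat2, Irf9, Ifih1, Rtp4, Ifi35 and Epsti1 had differences of -0.60, -0.39, -0.58, -0.39, -0.31 and -0.41 without a call (adjusted p = 0.0531, 0.0936, 0.0962, 0.0687, 0.0930 and 0.117). Under every alternative 11 of the 20 fell.

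**Figure D4:**
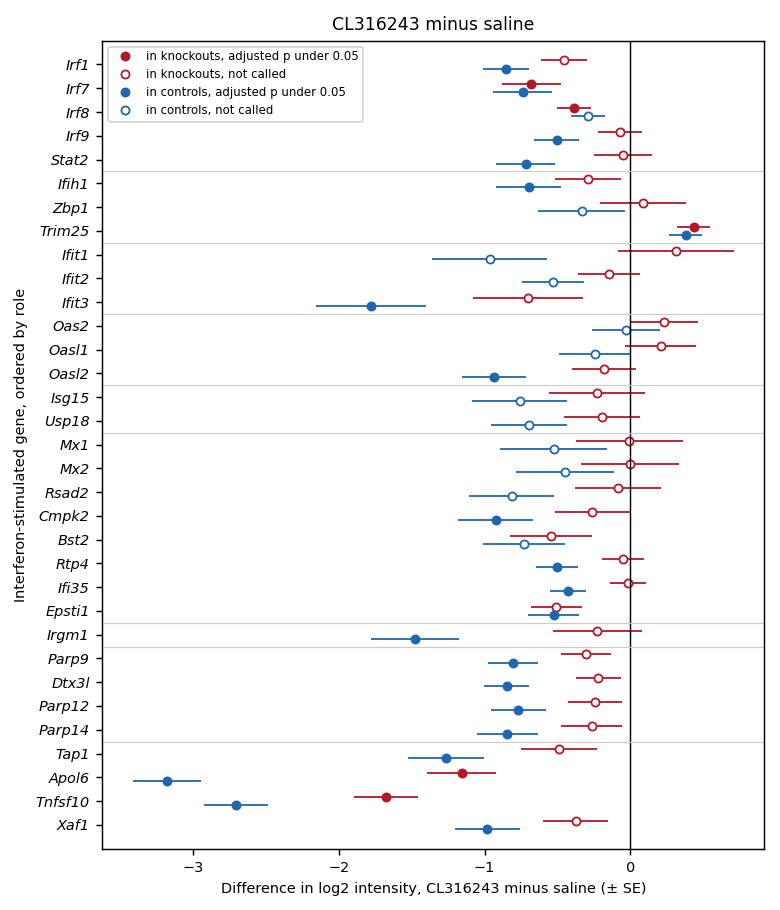
Difference in log2 intensity, CL316243 minus saline (x axis, ± SE), for each member (y axis) in knockouts (red) and in controls (blue), with filled circles where the adjusted p was under 0.05. Of the blue circles 21 are filled and all but Trim25 among these lie left of 0, and 5 red circles are filled.

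The 2 largest falls were those of Apol6 and Tnfsf10. Apol6 was lowered 9.05-fold, 7.78, 8.33 and 7.39 in CL316243-treated controls against 11.03, 11.38 and 10.63 in saline controls (-3.18 ± 0.24, SE, adjusted p = 1.19e-05). Tnfsf10 was lowered 6.51-fold, 5.75, 5.70 and 5.76 in CL316243-treated controls against 8.51, 8.98 and 7.83 in saline controls (-2.70 ± 0.22, adjusted p = 1.81e-05). Tap1 was lowered 2.40-fold (-1.26 ± 0.26, adjusted p = 0.00429). These 3 genes fell under every alternative. Xaf1 had a difference of -0.98 ± 0.22 (adjusted p = 0.00689) and lost its call with the mean of its 2 rows (-0.29, adjusted p = 0.396). The mean of the other Apol6 row was 8.22, below the 10.06 of the row used, and there the difference was -1.60. For Tnfsf10 the 2 rows of lower mean gave -0.77 and -0.45, so its rows disagree in size.

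Of the other roles with more than 1 tested member, ADP-ribosylation was the one in which every member fell. The 4 ADP-ribosylation genes all fell, by 0.77 (Parp12) to 0.85 (Dtx3l), under every alternative. Irgm1 had 6.86, 6.71 and 6.71 in CL316243-treated controls and 8.12, 9.01 and 7.57 in saline controls, and fell 2.78-fold (adjusted p = 0.00419). Ifit3 fell 3.43-fold (-1.78 ± 0.38, adjusted p = 0.00484), whereas Ifit1 (-0.97 ± 0.40, adjusted p = 0.0910) and Ifit2 (-0.53 ± 0.21, adjusted p = 0.0849) had no call. With only the groups compared in the fit Ifit1 was called lower (adjusted p = 0.0390). Oasl2 fell (-0.93 ± 0.22, adjusted p = 0.00864), while Oas2 had 7.19, 7.17 and 7.05 in CL316243-treated controls and 6.99, 7.30 and 7.20 in saline controls (-0.03 ± 0.23, adjusted p = 0.944). Oas2 was thus called for genotype after both injections and had no call for the agonist in either genotype. Irf1 fell (-0.85 ± 0.16, adjusted p = 0.00230) under every alternative. Whether members of 1 family differ from one another in their response was not tested.

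Among transcription factors Irf7, Stat2 and Irf9 fell with Irf1, and Irf8 had no call (-0.29 ± 0.12, adjusted p = 0.0859). Irf7 fell (-0.74 ± 0.20, adjusted p = 0.0186) except without CL316243 control array 1 or 2 or saline control array 2, where the difference was -0.73, -0.67 and -0.62 (adjusted p = 0.0509, 0.0656 and 0.0732). Stat2 fell (-0.72 ± 0.20, adjusted p = 0.0194), with -0.50 and no call without saline control array 2 (adjusted p = 0.0689), -0.70 without CL316243 control array 1 (adjusted p = 0.0550) and -0.69 without CL316243 control array 3 (adjusted p = 0.0501). Irf9 fell (-0.51 ± 0.15, adjusted p = 0.0284) and Ifih1 fell (-0.70 ± 0.23, adjusted p = 0.0373). Without saline control array 2 these 2 differences were -0.37 and -0.50 (adjusted p = 0.109 and 0.140), and the calls were also lost without CL316243 control array 1 (-0.51 and -0.76, adjusted p = 0.0628 and 0.0581), CL316243 control array 2 (-0.46 and -0.70, adjusted p = 0.0885 and 0.0853) or saline control array 1 (-0.54 and -0.77, adjusted p = 0.0526 and 0.0590). Ifih1 lost its call without CL316243 control array 3 too (-0.63, adjusted p = 0.0970). Of the antiviral effectors Cmpk2, Rtp4, Ifi35 and Epsti1 fell, each without a call when saline control array 2 was left out (-0.74, -0.38, -0.37 and -0.35, adjusted p = 0.0779, 0.0854, 0.0833 and 0.149). Without CL316243 control array 2 these 4 genes had no call either (-0.88, -0.48, -0.39 and -0.51, adjusted p = 0.0604, 0.0667, 0.0752 and 0.0991). Rtp4, Ifi35 and Epsti1 lost their calls without CL316243 control array 1 (-0.45, -0.40 and -0.52, adjusted p = 0.0718, 0.0648 and 0.0895), and Ifi35 and Epsti1 without saline control array 1 (-0.44 and -0.60, adjusted p = 0.0545 and 0.0547). The Epsti1 call was lost without CL316243 control array 3 as well (-0.55, adjusted p = 0.0692), and without knockout CL316243 array 1 or saline knockout array 1, which enter only the estimate of spread (adjusted p = 0.0523 and 0.0524). Rsad2, Bst2, Mx1, Mx2, Isg15 and Usp18 had no call, with differences of -0.82 to -0.45, although all of their CL316243 arrays lay below all saline arrays. With only the groups compared in the fit, Rsad2, Mx1, Mx2, Isg15 and Usp18 were called lower (adjusted p = 0.0216, 0.0105, 0.0225, 0.0186 and 0.0372). Rsad2 passed in 7 alternatives in all, Usp18 in 4 and Isg15 in 2. Trim25 was the 1 member that rose, at 8.66, 8.71 and 8.58 in CL316243-treated controls against 8.12, 8.46 and 8.24 in saline controls (0.38 ± 0.11, adjusted p = 0.0263). Its call was lost without any 1 of 4 arrays of these groups, namely CL316243 control arrays 1 and 2 (0.37 and 0.35, adjusted p = 0.0631 and 0.0830) and saline control arrays 1 and 3 (0.30 and 0.36, adjusted p = 0.101 and 0.0645).

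In this comparison 3 of 4 pan-leukocyte markers, 3 of 10 T and NK cell markers and 1 of 9 macrophage markers fell. Of the endothelial markers 4 of 7 rose and 2 fell, and of the dendritic cell markers 1 of 6 rose. Over all tested genes 18.8% were called lower and 11.0% higher. The summed pan-leukocyte level ran from -0.79 to -0.65 in CL316243-treated controls and from -0.16 to 0.21 in saline controls. The summed T and NK cell level ran from -0.69 to -0.54 in CL316243-treated controls and from -0.47 to 0.67 in saline controls. The summed level of the brown adipocyte markers ran from 0.91 to 1.06 in CL316243-treated controls and from -0.38 to -0.02 in saline controls. Of these markers 3 of 9 rose and 1 fell. Within this list Ppargc1a was at 11.57, 11.53 and 11.27 in CL316243-treated controls and at 7.32, 7.45 and 7.07 in saline controls. Adipoq was at 11.32, 11.54 and 11.45 against 11.74, 12.11 and 11.74, and Plin1 overlapped between these groups. The part of a change in cell numbers in the member differences was not tested.

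In knockouts, CL316243 moved few members. Of 33 members 4 fell and 1 rose, where 10.2% of all tested genes were called lower and 7.75% higher, and 6 members had all CL316243 arrays below all saline arrays (25.2% of all tested genes). The median member difference was -0.23, against -0.06 over all tested genes. At an unadjusted p under 0.05, 6 of 33 members passed as lower, near the 19.77% of all tested genes that did. Apol6 fell 2.23-fold (-1.16 ± 0.24, SE, adjusted p = 0.00773) under every alternative. Tnfsf10 fell 3.19-fold (-1.67 ± 0.22, adjusted p = 0.000883), with no call for the mean of its rows (-0.57, adjusted p = 0.0558). Irf7 (-0.68 ± 0.20, adjusted p = 0.0405) and Irf8 (-0.39 ± 0.12, adjusted p = 0.0426) fell as well. Irf7 lost its call without knockout CL316243 array 2 or 3 (-0.65 and -0.49, adjusted p = 0.0990 and 0.141), saline knockout array 2 or 3 (-0.63 and -0.57, adjusted p = 0.108 and 0.130), CL316243 control array 1 or 2 or saline control array 1 (-0.68 each, adjusted p = 0.0528, 0.0537 and 0.0559). Irf8 lost its call without knockout CL316243 array 1 or 3 (-0.32 and -0.40, adjusted p = 0.152 and 0.0949), saline knockout array 1 or 3 (-0.41 and -0.30, adjusted p = 0.0808 and 0.146), CL316243 control array 2 or saline control array 1 (-0.39 each, adjusted p = 0.0616 and 0.0555). With median-centred arrays neither Irf7 nor Irf8 had a call (-0.61 and -0.32, adjusted p = 0.0736 and 0.0907). With the mean of its rows Irf7 had no call either (-0.42, adjusted p = 0.128), its row of lower mean having a difference of -0.16. Trim25 rose (0.44 ± 0.11, adjusted p = 0.0228), as it did in controls, with no call without knockout CL316243 array 1 or 2 (0.40 and 0.39, adjusted p = 0.0836 and 0.0731) or saline knockout array 1 (0.35, adjusted p = 0.0866). Without saline knockout array 1 the counts were 3 lower and 0 higher, and over all single arrays left out they ran from 2 to 7 lower. Of the cell type markers, 2 of 9 for macrophages, 1 of 4 for neutrophils and 1 of 5 for fibroblasts rose. For T and NK cells 2 of 10 fell, and for dendritic cells 1 of 6. Endothelial markers rose in 3 of 7 cases and fell in 2, and brown adipocyte markers rose in 2 of 9 and fell in 1. The part of these cells in the member differences was not tested.

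The difference between the 2 agonist responses was tested as an interaction, in which the effect of CL316243 in controls is subtracted from its effect in knockouts. It was positive for 32 of 33 members, the exception being Irf8 (-0.10 ± 0.17), and for 51.9% of all tested genes. The 95% confidence interval of the interaction was -0.57 to 0.69 for Irf7 and -0.46 to 0.27 for Irf8, so sizeable differences of either sign are compatible with these arrays for both. A second Irf7 row, of lower mean, had an interaction of 0.57, against 0.06 in the row used. The median was 0.50 over members and 0.01 over all tested genes. Only Apol6 had a call (2.02 ± 0.33, SE, adjusted p = 0.0143), where 0.774% of all tested genes were called higher and 1.26% lower. Apol6 fell by 1.16 in knockouts and fell by 3.18 in controls, and its interaction was called under every alternative. At an unadjusted p under 0.05 the interaction passed 9 members as higher, and 8.69% of all tested genes. Tnfsf10 had 1.03 ± 0.31 (adjusted p = 0.124), which passed without saline control array 3 (1.34, adjusted p = 0.0132). Irgm1 had 1.25 ± 0.43 (adjusted p = 0.174) and Ifit1 1.28 ± 0.56 (adjusted p = 0.293). For members other than Apol6 the agonist's effect is therefore not shown to differ between genotypes with all arrays.

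In each group but the CL316243-treated controls, 1 array was the highest and another the lowest for most members. Saline control array 2 was the highest of its group for 33 of 33 members, knockout CL316243 array 1 for 26 and saline knockout array 2 for 22. Knockout CL316243 array 3 was the lowest of its group for 30 members, saline knockout array 1 for 27 and saline control array 3 for 25. The CL316243-treated controls showed no such array, since their arrays were the highest for 13, 4 and 16 members. The same shares over all tested genes are not given here, so these counts are not shown to be particular to the module. The median SD over members was 0.35 in CL316243-treated knockouts, 0.27 in saline knockouts, 0.10 in CL316243-treated controls and 0.32 in saline controls. The summed skeletal muscle level varied widely between arrays. It was 1.39, -0.29 and 1.42 in CL316243-treated knockout arrays 1 to 3 and -1.96, 0.99 and 0.95 in saline knockout arrays. In CL316243-treated control arrays it was -1.63, 0.33 and -0.65, and in saline control arrays -0.32, -2.06 and 1.84. Its part in the member levels within groups was not tested.

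**Figure D5:**
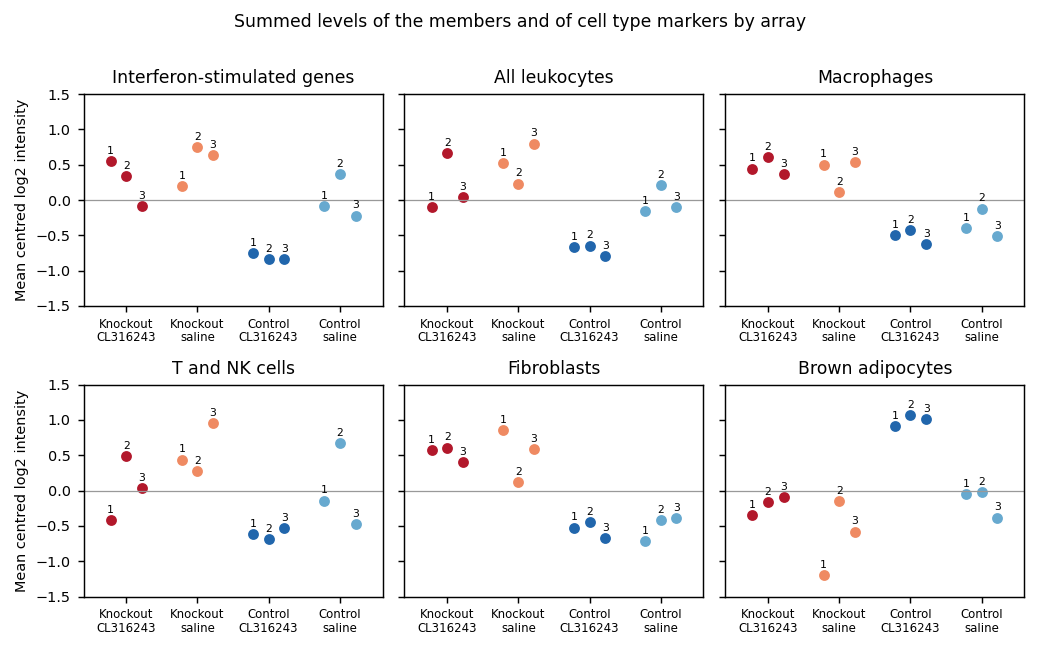
Mean centred log2 intensity (y axis) of the 33 members and of 5 lists of cell type markers on each array, numbered within its group, for knockouts and controls given CL316243 or saline. The CL316243-treated controls are lowest for the members, and saline control array 2 is the highest of its group for the members, the leukocyte lists and the macrophages.

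Another 128 gene names of the interferon pathway were listed from general knowledge but with earlier results of these data known. Through rows of 1 gene, 102 genes were tested. The name H2-K1 led to the row of H2-Q10, and Mndal to that of Ifi203, which is itself listed. Their counts describe these genes and are no independent evidence about the module. After CL316243, 57 of the 102 rose in knockouts and 1 fell, with a median difference of 0.53. After saline 22 rose and 4 fell, with a median of 0.27, and the count of rises was 3 without saline knockout array 3 and 4 without saline control array 1. CL316243 lowered 44 and raised 6 in controls (median -0.40), and lowered 9 and raised 6 in knockouts (median -0.15). The fall count in controls was 23 with median-centred arrays and 27 without saline control array 2. Over all tested genes 14.7% were called higher and 14.8% lower between genotypes after CL316243, and 5.44% and 6.19% after saline. For the agonist 11.0% were called higher and 18.8% lower in controls, and 7.75% and 10.2% in knockouts. These shares also stand beside the counts by role below.

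Of the ligands Ifnb1, Ifng and Ifna1 were tested, and none had a call in any comparison. Ifnb1 was at 6.53, 6.87 and 6.55 in CL316243-treated knockouts, 6.45, 6.87 and 6.14 in saline knockouts, 6.63, 6.36 and 6.87 in CL316243-treated controls and 6.91, 6.64 and 6.91 in saline controls. Ifng was at 5.26, 5.36 and 5.19 in CL316243-treated knockouts, 5.41, 5.36 and 5.61 in saline knockouts, 5.21, 5.47 and 5.65 in CL316243-treated controls and 5.60, 6.12 and 5.16 in saline controls. The 4 groups intermixed in both genes, and Ifng lay near the floor on most arrays, its highest value being that of saline control array 2.

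Receptors and kinases fell in controls given CL316243, in 7 of 9 genes. Ifngr2 fell by 0.78 ± 0.11 (adjusted p = 0.000600), Ifnar1 by 0.66 ± 0.10 (adjusted p = 0.00101), Ifngr1 by 0.60 ± 0.09 (adjusted p = 0.000787) and Ifnar2 by 0.55 ± 0.12 (adjusted p = 0.00549), all under every alternative. Ifngr2 was at 9.26, 9.45 and 9.25 in CL316243-treated knockouts, 9.42, 9.26 and 9.60 in saline knockouts, 8.54, 8.63 and 8.41 in CL316243-treated controls and 9.27, 9.17 and 9.46 in saline controls. The CL316243-treated controls were the low group for this receptor subunit. Between genotypes after CL316243, Ifngr2 rose by 0.79 ± 0.11 (adjusted p = 0.000666) in knockouts under every alternative. In knockouts 3 of 9 fell after the agonist, and the median difference over the 9 genes was -0.27, against -0.48 in controls. Among the 3 was Tyk2, the kinase of the type I receptor, which fell by 0.44 ± 0.07 (adjusted p = 0.00220). Tyk2 was lower after the agonist in controls too, at 7.28, 7.24 and 7.28 against 7.73, 7.82 and 7.68 after saline.

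Of 14 sensors and adaptors 9 rose and 1 fell in knockouts after CL316243, and 4 rose and 3 fell after saline. Ifi204, a DNA sensor of myeloid cells, rose by 1.51 ± 0.23 after CL316243 (adjusted p = 0.00105), and Tlr7, the endosomal receptor for single-stranded RNA, rose by 0.98 ± 0.21 (adjusted p = 0.00524). Dhx58, which encodes the RNA sensor LGP2, rose by 0.99 ± 0.21 (adjusted p = 0.00517), and these 3 calls held under every alternative. Tlr3, the endosomal receptor for double-stranded RNA, fell by 0.80 ± 0.17 (adjusted p = 0.00571) with CL316243 in controls. Of 5 transcription factors 2 rose in knockouts after CL316243, among them Irf5 (0.49 ± 0.10, adjusted p = 0.00426), and Stat3 rose with the agonist in controls (0.55 ± 0.12, adjusted p = 0.00511) and in knockouts (0.72 ± 0.12, adjusted p = 0.00256). Of 8 inhibitors Socs3, a brake on cytokine receptors, rose with CL316243 in knockouts (0.87 ± 0.15, adjusted p = 0.00381). Ptpn6, a phosphatase of blood cells, rose in knockouts after CL316243 (0.80 ± 0.19, adjusted p = 0.00970) and fell with CL316243 in controls by 1.12 ± 0.19 (adjusted p = 0.00148).

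Of 51 other induced effectors 38 rose and none fell in knockouts after CL316243, and 15 rose after saline. Slfn8, of the Schlafen family, rose by 2.18 ± 0.30 (adjusted p = 0.000571), and the inflammatory caspases Casp4 and Casp1 rose by 1.74 ± 0.21 and 1.63 ± 0.26 (adjusted p = 0.000310 and 0.00127) after CL316243, each under every alternative. Ifi27l2a rose after saline by 1.27 ± 0.22 (adjusted p = 0.00647), also under every alternative. Casp4 and Slfn2 were the 2 pathway genes with a called interaction (1.40 ± 0.30 and 0.97 ± 0.21, adjusted p = 0.0399 and 0.0416), and they lost that call in 12 and 15 of 20 alternatives. Antigen presentation fell with CL316243 in controls in 7 of 12 genes and in none in knockouts, and the difference between these counts was not tested. The immunoproteasome subunit genes Psmb9 and Psmb10 fell by 1.26 ± 0.28 and 0.77 ± 0.16 (adjusted p = 0.00682 and 0.00406) in controls, and Tap2, the partner of Tap1, by 0.73 ± 0.14 (adjusted p = 0.00238).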

How the data were processed

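RNA of interscapular brown adipose tissue from 12 mice, 3 in each of 4 groups, was measured on an Affymetrix mouse exon array. The deposited log2 intensities come from RMA normalization in Partek, according to the submitters' processing notes. Those notes list build mm9 and no software versions, and the values were used as deposited.

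Of 115830 rows, 25539 were assigned to 1 gene, 2300 to several and 87991 to none in the probe table used here, which gave 20259 genes, each read from its row of highest mean. Symbols were updated through gene identifiers for 24941 of those rows. Genes above the 25th percentile of named genes on at least 3 arrays were tested (15896).

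Each gene was fitted with a separate mean for every group in limma 3.58.1 in R 4.3.3 (prior degrees of freedom 3.136, residual 8) and checked on simulated data, with Benjamini-Hochberg adjustment within each of 5 contrasts. Summed levels are means over a list of values centred on each gene's mean over the arrays. Alternatives were median-centring, quantile normalization, 2 other filters, the mean of a gene's rows, trended and robust moderation, fitting only the groups compared, a skeletal muscle covariate, a replicate block and leaving out each array. Promoters were read from RefSeq windows, leaving out the 50 bases after each start, with Python 3.11.15 and pandas 2.3.3. The members, pathway genes and marker lists were chosen with earlier results of these data known. Values per array are given for a panel of members by role, for the 4 largest called differences per contrast and direction and for members called in the interaction, and pathway genes were named if called, up to 4 per role and contrast. Of the pathway genes so picked, mostly those that kept their calls are described, and Ifnb1 and Ifng were added after their values were seen.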

Additional observations from a re-analysis of the deposited data

Results flagged for a closer look

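Apol6 had a different response to CL316243 in the 2 genotypes by the test of the difference itself. Its CL316243 effect in knockouts, less the effect in controls, was 2.02 ± 0.33 (SE, limma interaction, adjusted p = 0.0143, n = 3 arrays per group). The gene fell by 1.16 in knockouts and fell by 3.18 in controls, and in both genotypes all 3 CL316243 arrays lay below all 3 saline arrays. A second Apol6 row, of lower mean, had an interaction of 0.98 in the same direction.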

How the results depend on the processing

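No member difference reversed its direction with a call under any alternative. With only the groups compared in the fit, the members higher in saline knockouts numbered 2 and those raised by CL316243 in controls 0. The members lowered by CL316243 in knockouts numbered 2 with median-centred arrays, no filter, the mean of a gene's rows or the skeletal muscle covariate. Leaving out each array in turn, the knockout effect after CL316243 gave 19 to 31 members higher (median 0.88 to 1.25) and after saline 1 to 9 (median 0.30 to 0.66). The CL316243 effect in controls gave 12 to 22 lower and 0 to 1 higher (median -0.88 to -0.60), and that in knockouts 2 to 7 lower and 0 to 1 higher (median -0.41 to -0.02). The interaction gave 1 to 2 higher (median 0.35 to 0.73). Pathway genes higher in saline knockouts numbered 8 with only the groups compared. Same-numbered arrays deviated from their group means with correlations of -0.30 to 0.48 over 18 pairs, 7 of them above 0.1. Differently numbered arrays were not compared, so these values cannot tell whether the numbers pair the mice. With the replicate block, 29 members were higher in knockouts after CL316243 (Bst2 at 0.91, adjusted p = 0.0509, was not), 6 after saline, 19 were lowered by CL316243 in controls and 3 in knockouts. With 3 arrays per group, small differences cannot be resolved, and rows near the floor give compressed differences.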
